A study of Mus musculus with 48 samples.

Results

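The cytosolic ribosomal protein genes were followed in 4 cell types of the neurovascular unit (NVU) after ischemic stroke in mice. They were taken by symbol from the protein-coding rows of the deposited table, namely *Rpsa*, symbols starting with *Rplp*, and *Rpl* or *Rps* followed by a number, without the *Rps6k* kinases. Of 24973 genes, 91 matched, and 84 of them averaged 10 or more normalized counts across the 48 libraries. These 84 members held 76 core ribosomal protein genes, 45 of the large and 31 of the small subunit. They also held 5 paralogs (*Rpl7l1*, *Rpl22l1*, *Rpl36al*, *Rps27l* and *Rps27rt*), the copies *Rpl9-ps6* and *Rpl10-ps3*, and *Rps19bp1*, which encodes a regulator of the deacetylase SIRT1 and no ribosomal protein. No measured change was used to choose them.

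Adult male C57BL/6 wild-type mice underwent transient occlusion of the middle cerebral artery for 1 h with 23 h of reperfusion. Microglia (MG) were sorted as CD45 low and CD11b positive cells. Endothelial cells (EC, VECAD positive), pericytes (PC, NG2 and PDGFRβ positive) and astrocytes (AC, ACSA2 high) were gated among CD45 negative cells, each without the surface markers of the other 2. All were isolated from the ischemic ipsilateral hemisphere and, as the control, from the contralateral hemisphere of the same mice. Each of the 8 groups had 6 libraries, each from 3 to 4 pooled mice, so that all groups came from operated animals and no sham-operated or untouched mice were compared. For 12 libraries, ipsilateral PC and MG, the cell type in the sample title is the opposite of that in the table's column name, and the latter was used. Under them, each of the 4 EC markers (such as *Cldn5*), the 4 AC markers (such as *Aqp4*) and the 6 MG markers (such as *Tmem119*) was higher in every library of its own cell type than in any other library, and so were 4 of the 5 PC markers. The ipsilateral libraries with column name MG had MG markers summing to 165552 to 271020 normalized counts and PC markers to 102 to 1895, and those with column name PC had PC markers of 34272 to 90973 and MG markers of 690 to 48587.

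The libraries held sums of 10549900 to 16942165 normalized counts, and by the steps between low values a single read was worth 0.664 to 2.37 normalized counts, depending on the library. Contralateral EC replicate 2 and ipsilateral MG replicate 2 stood apart. Their summed shares of member counts were 3.22% and 3.51% of all normalized counts, against 0.274% to 2.15% in the other 46 libraries. In the same libraries, protein-coding genes with an exonic length of at most 1000 bases and no membership deviated by a median of 1.92 and 1.82 (log2) from their mean in the cell type. Neutrophil markers were also the highest of the group there, with summed normalized counts of 1612 (others 1 to 546) and 17914 (others 1385 to 5233), and so were markers of red blood cells, with 78023 (others 5916 to 27118) and 14624 (others 2502 to 9060). Their part in the member levels was not tested. Values that these libraries move most are also given without them.

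A ribosomal protein is a structural part of the small or the large subunit, and each ribosome holds a single copy of nearly every one. The subunits are assembled in the nucleolus around the ribosomal RNA with the help of many biogenesis factors. The mRNAs of ribosomal proteins are among the most abundant of a cell and as a rule begin with a C followed by a run of pyrimidines, the 5′ terminal oligopyrimidine (TOP) motif. Through it the kinase mTOR and the RNA-binding protein LARP1 control their translation together.

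To show this shared feature, the annotated transcription starts of the members were read from RefSeq (build GRCm38.p6), where 62 of the 84 members had 73 starts. A C at the annotated start followed by at least 4 pyrimidines (C or T) was found at 19.2% of these starts, against 2.51% of all 32851 starts in the table and 0% of the 75 starts of mitochondrial ribosomal protein genes. With a start allowed within 5 bases on either side, the shares were 43.8%, 18.3% and 22.7%. The windows below hold 30 bases of the coding strand around the annotated start, on the + strand for *Rpl38*, *Rps27l*, *Rpsa* and *Rplp0* and on the - strand for *Rps6*, *Rps18* and *Rps27*. The first 4 are members with a run at the start, and *Rps27l* is the paralog of *Rps27*. Its run begins after the annotated start. *Rpsa* and *Rplp0* are members that rose after stroke and had no such run in these windows. Capitals mark a run of pyrimidines that begins with a C.
Rps6, chr4:86857353-86857382: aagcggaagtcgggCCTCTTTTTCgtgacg
Rps18, chr17:33955651-33955680: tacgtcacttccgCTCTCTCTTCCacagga
Rpl38, chr11:114668565-114668594: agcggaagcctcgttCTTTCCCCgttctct
Rps27, chr3:90213634-90213663: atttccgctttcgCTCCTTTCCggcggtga
Rps27l, chr9:66946071-66946100: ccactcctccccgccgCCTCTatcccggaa
Rpsa, chr9:120127751-120127780: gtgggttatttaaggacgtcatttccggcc
Rplp0, chr5:115559452-115559481: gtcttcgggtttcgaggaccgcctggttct
The 14 members with a C at the start and at least 4 pyrimidines after it had a median log2 fold change after stroke of 0.58 in MG, against 0.45 for the 48 members without. In EC, PC and AC these medians were 0.08 against 0.04, 0.39 against 0.31, and 0.41 against 0.42. A match in such a window describes the annotation and not the start used in these cells.

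In the contralateral hemisphere, AC had the lowest share of ribosomal protein mRNA of the 4 cell types. The summed share of the members was 0.484% ± 0.164 (SD, n = 6) in AC, 0.943% ± 0.134 in PC, 1.31% ± 0.249 in MG and 1.49% ± 0.875 in EC. The lowest, median and highest library had 0.274%, 0.506% and 0.703% in AC, 0.788%, 0.919% and 1.13% in PC, 1.04%, 1.23% and 1.70% in MG, and 0.885%, 1.19% and 3.22% in EC. The AC libraries did not overlap with those of any other cell type, while those of EC, PC and MG overlapped with each other. Without replicate 2, contralateral EC had 1.15% ± 0.249 (n = 5). The share is relative to all counts of a library and does not give an amount of RNA per cell. As these are bulk samples, it may hold RNA of admixed cells, whose part was not tested.

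**Figure D1:**
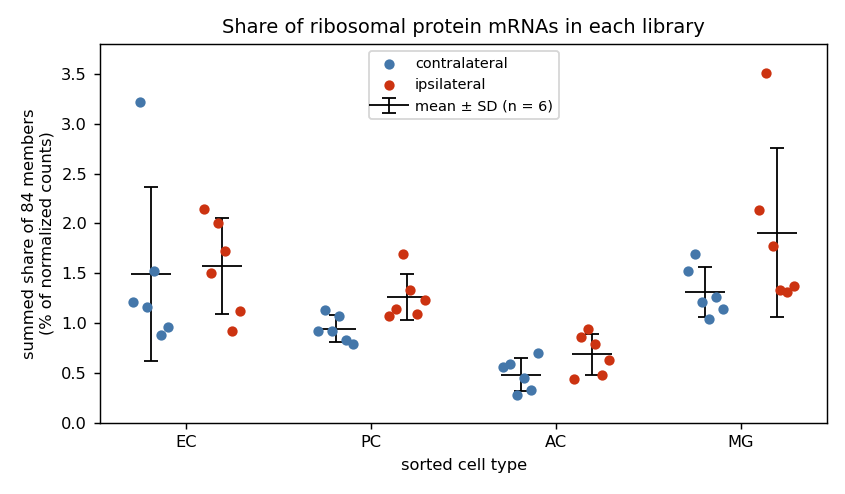
Summed share of the 84 members (% of normalized counts) in each of the 48 libraries (points), with the mean ± SD of the 6 libraries per group (bars), for contralateral and ipsilateral EC, PC, AC and MG. Contralateral AC libraries lie at 0.274% to 0.703%, below every other contralateral library, and contralateral EC replicate 2 (3.22%) and ipsilateral MG replicate 2 (3.51%) lie far above their groups.

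Member by member, 82 of the 84 had their lowest contralateral mean in AC. The exceptions were *Rpl38* and *Rps19bp1*, which were lowest in PC. How many of all genes were lowest in AC was not counted. EC had the highest mean for 61 members and MG for 21, but this order rested on contralateral EC replicate 2. Without it, the highest mean was that of MG for 63 members and of EC for 15, while AC was still the lowest for 82. Levels were compared by limma on log2(normalized count + 1) in a fit of all 48 libraries and 15003 genes, and a member was called where the p adjusted by Benjamini-Hochberg did not exceed 0.05 and the difference reached 1 (log2, 2-fold). On this scale, 72 of 84 members (85.7%) were higher in EC than in AC, against 14.1% of all genes tested, and none was lower, against 29.2%. In MG 74 members (88.1%) were higher than in AC, against 16.2% of all genes, and none was lower, against 28.7%. In PC 30 members (35.7%) were higher than in AC, against 12.8%, and none was lower, against 26.7%. The median differences over the members were 1.39 for EC minus AC, -1.40 for AC minus MG and 0.84 for PC minus AC, where the medians over all genes were -0.40, 0.24 and -0.38.

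The comparisons among EC, PC and MG called a smaller share of the members than of all genes. EC exceeded PC in 10 members (11.9%), against 14.1% of all genes, and PC exceeded EC in none, against 15.6%. MG exceeded PC in 13 members (15.5%), against 21.8%, and PC exceeded MG in none, against 20.2%. Between EC and MG no member was called in limma, against 16.5% of genes higher in EC and 19.4% higher in MG, and 6 members had an unadjusted p under 0.05. The share of all genes under that unadjusted p was not counted. Over all 84 members, the median difference of EC minus MG was -0.04. Without contralateral EC replicate 2, the members called were 51 higher in EC than in AC (60.7%, against 13.8% of all genes), 3 higher in EC than in PC (3.57%, against 13.8%) and 2 higher in MG than in EC (2.38%, against 17.6%), while the 30 between PC and AC and the 74 between AC and MG were as many as before.

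*Rps6* encodes the small subunit protein that S6 kinases phosphorylate. It had 459, 682 and 922 normalized counts in the lowest, median and highest contralateral AC library, 1114, 1553 and 1883 in PC, 1151, 1567.5 and 1824 in MG, and 1416, 1877.5 and 4634 in EC. All AC libraries were below all others, and those of EC, PC and MG overlapped. The difference between EC and AC was 1.66 ± 0.24 (SE, log2, adjusted p = 8.11e-08). Without contralateral EC replicate 2, the highest EC library had 2889 and this difference was 1.44 ± 0.22 (adjusted p = 5.09e-07).

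*Rpl10* encodes a protein that joins the large subunit late in its maturation. It had 552, 998.5 and 1441 normalized counts in the lowest, median and highest contralateral AC library, 1718, 2583.5 and 8425 in EC, 2664, 3372 and 5202 in PC, and 3127, 3628 and 5820 in MG. The AC libraries again lay below all others, and without contralateral EC replicate 2 the highest EC library had 4425. *Rpl10* was higher in PC than in AC by 1.88 ± 0.29 (SE, log2, adjusted p = 4.48e-07), and AC minus MG was -2.09 ± 0.29 (adjusted p = 3.86e-08). *Rplp0*, which anchors the stalk of the large subunit that binds elongation factors, was higher in PC than in AC by 1.73 ± 0.26 (adjusted p = 4.81e-07).

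PC differed from EC and MG in some of the members only. *Rpl38*, a large subunit protein known for the selective translation of Hox mRNAs, had 146, 289 and 420 normalized counts in the lowest, median and highest contralateral PC library, 104, 311.5 and 426 in AC, 242, 451 and 655 in MG, and 454, 749 and 3368 in EC. EC libraries lay above all PC and AC libraries and overlapped with those of MG. EC minus PC was 1.74 ± 0.46 (SE, log2, adjusted p = 0.0023), and without contralateral EC replicate 2, where the highest EC library had 884, it was 1.34 ± 0.45 (adjusted p = 0.0163). PC minus MG was -1.49 ± 0.40 for *Rps12* (adjusted p = 0.00196).

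Among the members not called between AC and the other cell types were *Rps19bp1* and the paralogs *Rpl22l1* and *Rpl7l1*. *Rps19bp1* had means of 247 ± 94.8 in AC, 195 ± 130 in EC, 143 ± 52.3 in PC and 231 ± 39.3 in MG (SD, n = 6 each), and its adjusted p was 0.284 for EC against AC, 0.0615 for PC against AC and 0.963 for AC against MG. For *Rpl22l1*, the paralog of *Rpl22*, AC minus MG was -0.33 ± 0.39 (SE, log2, adjusted p = 0.521) and EC minus AC was 0.69 ± 0.39 (adjusted p = 0.141). Without contralateral EC replicate 2, EC minus AC was 0.18 ± 0.33 (adjusted p = 0.682) and EC minus PC was -0.73 ± 0.33 (adjusted p = 0.0812). For *Rpl7l1*, the paralog of *Rpl7*, the differences were smaller than 2-fold in each comparison with AC, with EC minus AC at 0.43 ± 0.17 (adjusted p = 0.0364) and AC minus MG at -0.77 ± 0.17 (adjusted p = 0.000202).

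The order of the members was alike in the 4 cell types. Spearman's rho between the mean contralateral levels of 2 cell types, across the 84 members, was 0.914 to 0.946 over the 6 pairs, a description across genes that share library, length and mapping. Per kilobase of the longest annotated coding transcript, *Rps14* had the highest mean over the 48 libraries (6190 normalized counts per kilobase), before *Rplp0* (5503) and *Rpl13* (5405). That transcript need not be the one used in these cells, for instance with 5179 bases for *Rps15a*, so ranks per kilobase depend on the annotation. *Rplp0* had the highest normalized count per gene, with a mean of 7473. *Rps27rt*, the member nearest to the minimum, had a mean of 12.98, and *Rpl39l*, the gene nearest below it, had 8.85.

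Several core members were low in the table for their kind. *Rpl13a*, whose protein also takes part in the silencing of inflammatory mRNAs, had 76.2 and *Rpl23a* 202 normalized counts per kilobase, ranks 80 and 78 of 84. Of the 75-base windows of their transcripts, 56.3% and 81.7% also occur in transcripts of other genes, and the authors left out reads that map to several places. *Rpl24*, a core large subunit gene, fell below the minimum with a mean of 3.52, and 80.9% of its windows are shared. Across the members, the share of such windows had a Spearman's rho of -0.08 with the level per kilobase (84 genes, a description). Levels of members with near-identical copies are uncertain. The part of shared windows in these levels was not tested.

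Markers of oligodendrocytes (*Mbp*, *Mog* and *Mag*) moved with the AC group. Their sum was 10354 to 99076 normalized counts (median 60737.5) in contralateral AC, where the 4 AC markers summed to 57129 to 114614 (median 85602), against 301 to 2544 in EC, 166 to 11773 in PC and 820 to 3425 in MG, and none of the 3 was at 0 in a whole group. The sum of 5 neuron markers was 617 to 4733 in contralateral AC, against 15 to 108 in EC, 0 to 1295 in PC and 50 to 205 in MG. The part of these cells in the lower member levels of AC was not tested. Each library was also centred on other genes of the same length class, with all annotated exons of a gene counted together. Then 65 members were called higher in EC than in AC (77.4%, against 14.9% of all genes). In PC 33 members (39.3%, against 13.4%) and in MG 78 (92.9%, against 17.7%) were called higher than in AC.

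Related genes from lists chosen for comparison were read from the same fit, where 14.1% of all genes were higher in EC, 12.8% in PC and 16.2% in MG than in AC. Of 18 translation factors and other mRNAs known to carry the TOP motif, 7 were higher in EC, 9 in PC and 5 in MG than in AC, and none was lower. Their median difference was 0.90 for both EC and PC minus AC and -0.59 for AC minus MG. Of 78 mitochondrial ribosomal protein genes, 1 was higher and 3 were lower in EC than in AC, 0 and 4 in PC, and 1 and 7 in MG. Of 35 genes of ribosome biogenesis, 14 were higher in MG than in AC. In EC 1 was higher and 6 were lower than in AC, and in PC 1 and 4. MG also exceeded EC in 21 of these genes and PC in 16, against 19.4% and 21.8% of all genes.

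After stroke, most members had a fold change above 0 in PC, AC and MG, but few passed the test without a block for the replicate number. The 6 ipsilateral and 6 contralateral libraries of a cell type were fitted with limma on the same log2 scale, over 13242 genes in EC, 13597 in PC, 15264 in AC and 13300 in MG, and a gene was called changed at an adjusted p of at most 0.05. In MG 4 of 84 members were higher (4.76%, against 4.62% of all genes tested) and none was lower (against 6.62%), and with the replicate block 14 were higher (16.7%, against 4.83%). In PC 1 of 83 members was higher (against 0.471%) and none was lower (against 0.588%). In EC no member was changed (against 0.362% higher and 0.128% lower), and in AC none of 81 (against 0.36% and 0.00655%). At an unadjusted p under 0.05 there were 1 member in EC, 24 in PC, 9 in AC and 16 in MG, all higher, while 11.9%, 15.4%, 9.28% and 28.01% of all genes passed that level in either direction. With the cell types of the sample titles, 61 members were higher in PC (72.6%, against 24.1% of all genes), and in MG 4 were higher (4.76%, against 24.7%) and 13 lower (15.5%, against 26.5%), with medians of 1.06 and -0.24. The same 5 calls stood under the additional rule of the study for regulated genes, a fold of 1.5 or more in either direction with every replicate of one hemisphere above 10 normalized counts, which 0.491% of genes passed in EC, 1.02% in PC, 0.341% in AC and 10.6% in MG.

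The median log2 fold change of the members was 0.04 in EC, 0.31 in PC, 0.41 in AC and 0.51 in MG, where the medians of all genes tested were -0.03, -0.04, -0.06 and -0.18. In AC 81 of 81 members had a fold change above 0, in MG 81 of 84, in PC 78 of 83 and in EC 51 of 84. Of all genes tested, 44.4% were above 0 in AC, 40.5% in MG, 47.5% in PC and 47.9% in EC. The core members of the large subunit had medians of 0.04, 0.27, 0.39 and 0.46 in EC, PC, AC and MG, and those of the small subunit 0.04, 0.38, 0.45 and 0.55.

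**Figure D2:**
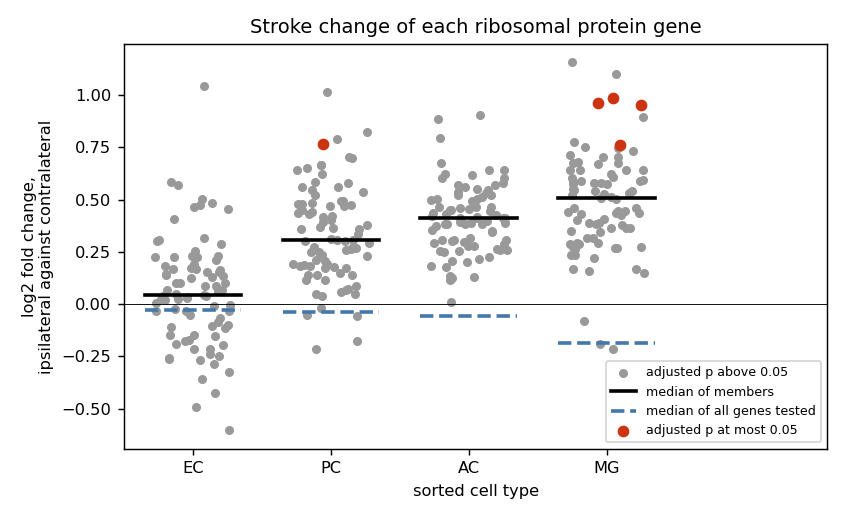
Log2 fold change (ipsilateral against contralateral) of each member in EC, PC, AC and MG (points, with random horizontal spread), with members at an adjusted p of at most 0.05 in red, the median of the members as a black line and the median of all genes tested as a dashed line. The member medians rise from 0.04 in EC to 0.51 in MG, and the members called are 1 in PC and 4 in MG.

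The members moved together from pair to pair, and the pairs did not move alike. In MG the median member difference between the hemispheres of a pair was -0.03 to 1.59 (log2), and it was above 0 in 5 of 6 pairs. The highest value was that of replicate 2, where 84 of 84 members were higher in the ipsilateral library. In PC the range was -0.11 to 0.81, with 5 of 6 pairs above 0. In AC it ran from -0.66 in replicate 1, where 3 of 81 members were higher, to 1.81 in replicate 3, where 81 of 81 were. In EC it ran from -1.70 in replicate 2, where 1 of 84 members was higher, to 0.87 in replicate 1, where 82 were. The standard deviation over the 6 pairs was 0.93 in EC, 0.36 in PC, 0.84 in AC and 0.58 in MG, larger than the mean in every cell type. Pairs with the larger summed share on the ipsilateral side numbered 6 of 6 in PC and in MG, 5 in EC and 4 in AC. It rose from 1.31% ± 0.249 to 1.91% ± 0.849 in MG (SD, n = 6) and from 0.943% ± 0.134 to 1.26% ± 0.233 in PC, values whose ranges overlapped.

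The 2 libraries that stand apart set part of these values. Without ipsilateral MG replicate 2, the ipsilateral MG share was 1.58% ± 0.359 (n = 5), the member median was 0.21 and 7 members were higher (8.33%, against 7.25% of all genes). Of the 4 members called with all libraries, *Rpsa* then had a log2 fold change of 0.80 (adjusted p = 0.00202), *Rplp0* 0.76 (adjusted p = 0.00157), *Rps2* 0.76 (adjusted p = 0.00578) and *Rpl6* 0.55 (adjusted p = 0.0171), the last under 1.5-fold. Without contralateral EC replicate 2, the EC median was 0.39 and *Rps2* and *Rpsa* were higher (2.38%, against 1.01%), with log2 fold changes of 1.21 (adjusted p = 0.037) and 0.88 (adjusted p = 0.046).

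Short transcripts of other genes moved with the members. Protein-coding genes with an exonic length of at most 1000 bases and a mean of at least 200 had a median log2 fold change of 0.59 in MG (115 genes) and 0.21 in PC (105 genes), and those of at least 8000 bases had -0.31 (1338 genes) and -0.19 (1453 genes). In EC the short genes had -0.22 (116 genes) and in AC -0.14 (116 genes), where the member medians were 0.04 and 0.41. With each library centred on genes of its length class, the member medians were 0.11 in EC, 0.30 in PC, 0.49 in AC and 0.27 in MG. Changed members were then *Rps2* in EC (1.19%, against 0.642% of all genes higher), *Rpsa* and *Rplp1* in PC (2.41%, against 0.596%), none in AC, and 5 in MG (5.95%, against 5.88%), among them *Rplp0*, *Rps2*, *Rpsa* and *Rps27l*. Length counted all annotated exons of a gene together, 3170 bases for *Rpsa* and 4483 for *Rps3*, whose longest coding transcripts have 1938 and 1908. Such members were centred on genes of a like exonic length and not on short ones. The centring therefore cannot show what remains beside a shift of short transcripts. Rescaling each library to the median of the members themselves takes out their shared change by construction, and none was then changed in any cell type.

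**Figure D3:**
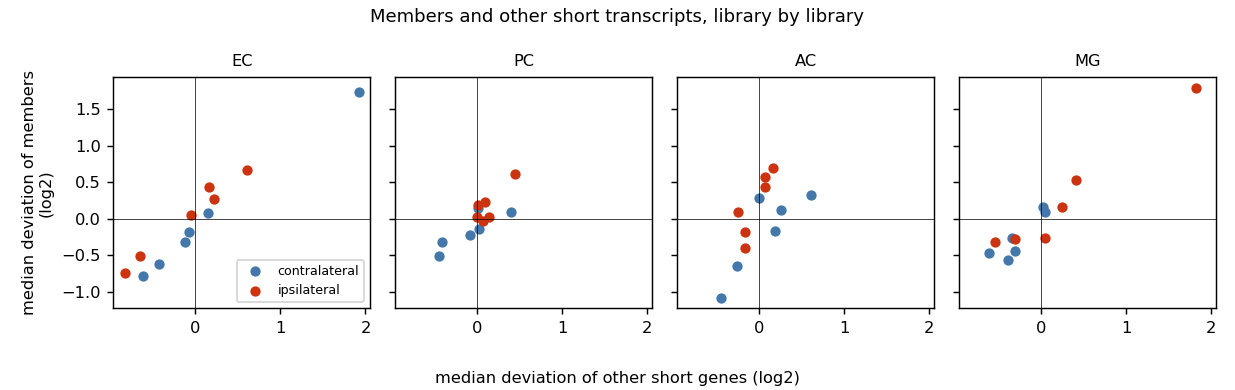
Median deviation of the members (vertical axis, log2) against that of other protein-coding genes of at most 1000 bases (horizontal axis, log2) in the 12 libraries of each cell type, each from the mean over these libraries. Contralateral EC replicate 2 (1.92 and 1.73) and ipsilateral MG replicate 2 (1.82 and 1.79) lie at the upper right, and in AC ipsilateral replicate 3 has the highest members (0.69) with short genes at 0.17.

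*Rpsa* was the member changed in both PC and MG. Its protein is part of the small subunit and is also known as the precursor of the 67 kDa laminin receptor, and the gene lies on chromosome 9 (chr9:120127689-120132369, + strand, GRCm38). In PC it had 1679 to 2395 normalized counts in the contralateral libraries (median 2057) and 2881 to 4952 in the ipsilateral libraries (median 3241.5). The groups did not overlap, and all 6 pairs were higher. The log2 fold change was 0.77 ± 0.15 (SE, adjusted p = 0.0289, 1.70-fold). The call in PC was narrow, because it remained in only 1 of the 6 fits that leave out a replicate, with adjusted p of 0.0493 without replicate 2 and up to 0.127 without another.

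In MG *Rpsa* had 2632 to 4219 normalized counts in the contralateral libraries (median 3279.5) and 4496 to 12742 in the ipsilateral libraries (median 6115.5). The groups did not overlap, although replicate 2 alone gave the highest ipsilateral value. The log2 fold change was 0.99 ± 0.22 (SE, adjusted p = 0.0105, 1.98-fold). In EC and AC it was 0.58 ± 0.32 (adjusted p = 0.5) and 0.89 ± 0.29 (adjusted p = 0.344), higher in 5 and in 6 of 6 pairs.

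*Rplp0* on chromosome 5 (chr5:115559467-115563727, + strand) had 5940 to 7945 normalized counts in contralateral MG (median 6747) and 10299 to 25582 in ipsilateral MG (median 11311.5). Every ipsilateral library was above every contralateral one. The log2 fold change was 0.95 ± 0.21 (SE, adjusted p = 0.0114). Its partners in the stalk did not pass the test in MG, with 0.54 ± 0.37 for *Rplp1* (adjusted p = 0.353) and 0.64 ± 0.42 for *Rplp2* (adjusted p = 0.334). In PC the order was different, with 0.83 ± 0.20 for *Rplp1* (adjusted p = 0.0739), 0.70 ± 0.22 for *Rplp2* (adjusted p = 0.144) and 0.31 ± 0.17 for *Rplp0* (adjusted p = 0.408), each higher in 6 of 6 pairs.

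*Rps2*, a small subunit protein at the entry of the mRNA channel, lies on chromosome 17 (chr17:24720063-24721929, + strand). It had 2057 to 3226 normalized counts in contralateral MG (median 2702) and 3532 to 10227 in ipsilateral MG (median 4715.5), with no overlap. The log2 fold change was 0.96 ± 0.24 (SE, adjusted p = 0.018). In EC *Rps2* had 1427 to 4288 (median 2433.5) and 3006 to 7013 (median 5039.5), with overlapping groups but higher values in 6 of 6 pairs. The EC difference was 1.04 ± 0.29 (adjusted p = 0.144), the highest of the members there, and it was also called in the fit of all 48 libraries. In PC and AC *Rps2* had 0.58 ± 0.18 (adjusted p = 0.13) and 0.79 ± 0.26 (adjusted p = 0.368).

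*Rpl6*, a large subunit protein encoded on chromosome 5 (chr5:121204481-121209241, + strand), had 1153 to 1536 normalized counts in contralateral MG (median 1271.5) and 1496 to 4598 in ipsilateral MG (median 1912.5). The groups overlapped slightly, and all 6 pairs were higher. The log2 fold change was 0.76 ± 0.23 (SE, adjusted p = 0.0477). This call lay at the threshold and was lost with a pseudocount of 0.1 (adjusted p = 0.0519), with no filter (0.0734), in the fit of all 48 libraries (0.0659), with robust eBayes (0.0506), with centring by length (0.0588) and with replicates 1 to 4 alone (0.0795). Leaving out a replicate kept the call in MG in 5 of 6 fits for *Rpsa* and *Rplp0*, in 3 for *Rps2* and in 1 for *Rpl6*, and without replicate 3 no member was called.

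**Figure D4:**
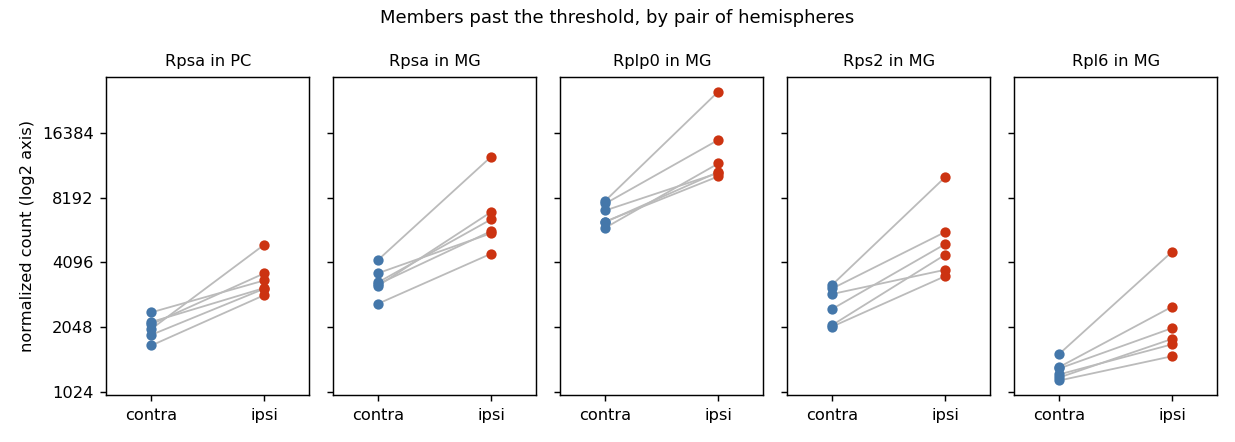
Normalized counts (log2 axis) of *Rpsa* in PC and of *Rpsa*, *Rplp0*, *Rps2* and *Rpl6* in MG, with a point for each library and a line joining the contralateral and ipsilateral libraries of a replicate. All lines rise, and the highest ipsilateral MG value of each gene is that of replicate 2.

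As both hemispheres were taken from the same mice, libraries of the same replicate number were treated as a pair, and this number was also fitted as a block. In MG the 14 changed members were then all higher. Beside the 4 named above they included *Rpl27*, *Rpl15*, *Rps27l*, *Rpl38*, *Rpl8*, *Rps19*, *Rpl29* and *Rps6*, with adjusted p of 0.03 to 0.0474. *Rpsa* in PC had an adjusted p of 0.0354 with the block, and no member was changed in EC or AC.

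Other members with known additional roles did not pass the test. *Rpl5* and *Rpl11*, which with the 5S RNA bind the p53 regulator MDM2, had 0.44 ± 0.21 (SE, adjusted p = 0.187) and 0.35 ± 0.31 (adjusted p = 0.484) in MG. *Rps27a*, which encodes ubiquitin fused to a ribosomal protein, had 0.55 ± 0.35 (adjusted p = 0.314), and *Rpl13a* had 0.64 ± 0.38 (adjusted p = 0.289). *Rps6* had 0.60 ± 0.22 (adjusted p = 0.0873 without and 0.0474 with the block). *Rps27* had the lowest value of the members in MG, -0.21 ± 0.50 (adjusted p = 0.81), and was lower in 5 of 6 pairs. *Rpl38* had 1.10 ± 0.47 in MG (adjusted p = 0.138) and 1.01 ± 0.31 in PC (adjusted p = 0.136), higher in 6 of 6 pairs in each.

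*Rps27l* and *Rps27* encode nearly the same small subunit protein, and *Rps27l* is known as a target of p53. In MG the paralog had the highest and the core gene the lowest fold change of the members. *Rps27l* had 580 to 1175 normalized counts in contralateral MG (median 900.5) and 908 to 7805 in ipsilateral MG (median 1726), while *Rps27* had 1288 to 3644 (median 2016) and 717 to 9481 (median 1457.5). Both groups overlapped for either gene. The fold change of *Rps27l* was 1.16 ± 0.42 (SE, log2, adjusted p = 0.0907 without and 0.0316 with the block) in MG and 0.70 ± 0.19 (adjusted p = 0.102) in PC.

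Within a library, the ratio of the pair does not depend on the size factor. The mean log2 ratio of *Rps27l* to *Rps27* in MG was -1.34 ± 0.28 in the contralateral and 0.03 ± 0.41 in the ipsilateral libraries (SD, n = 6), with ranges of -1.75 to -0.94 and -0.55 to 0.53. In EC it was -1.21 ± 0.18 and -0.43 ± 0.32, with ranges of -1.48 to -1.02 and -0.93 to -0.07. In both cell types the groups did not overlap and the ratio was higher in 6 of 6 pairs. In PC it was -0.25 ± 0.28 and 0.12 ± 0.39, and in AC 0.07 ± 0.54 and 0.17 ± 0.28, with overlapping ranges.

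As the pair was chosen after its values were seen, these ratios are a description and were not tested. Under the cell types of the sample titles, the ipsilateral MG libraries would be those with ratios of -0.51 to 0.71, also above all contralateral MG libraries.

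**Figure D5:**
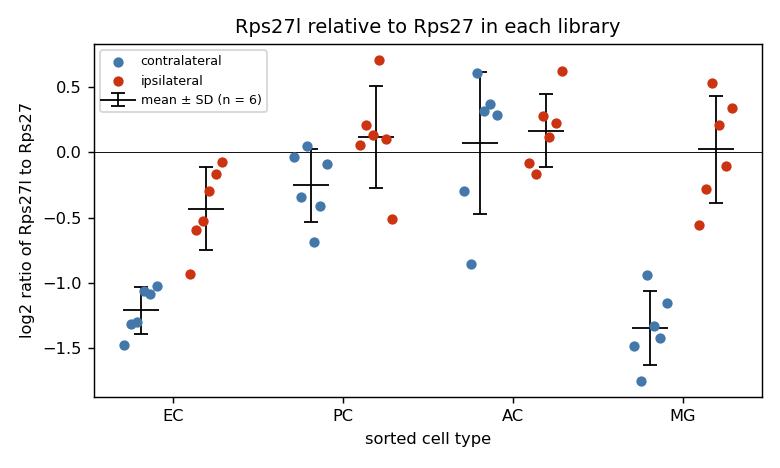
Log2 ratio of *Rps27l* to *Rps27* in each library (points), with the mean ± SD of the 6 libraries per group (bars), in contralateral and ipsilateral EC, PC, AC and MG. The ipsilateral libraries lie above all contralateral ones in EC and MG, while the groups overlap in PC and AC.

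For the other paralogs, the mean log2 ratio of normalized counts, not corrected for length, of *Rpl22l1* to *Rpl22* was -2.27 to -1.35 over the 8 groups, that of *Rpl7l1* to *Rpl7* was -1.82 to -0.90, and that of *Rpl36al* to *Rpl36a* was -3.22 to -2.28. In none of the 4 cell types was one of these ratios higher, or lower, on the ipsilateral side in all 6 pairs. Of the transcript of *Rps27*, 60.7% of the 75-base windows are shared with other genes, against 4.39% for *Rps27l*.

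Whether the stroke change of a member differed between cell types was tested as an interaction in the fit of all 48 libraries. No member was called by limma in any of the 6 comparisons, with or without the replicate block. In this fit the block was shared by all cell types, so the hemispheres were not paired within a cell type. Of all genes, 0.0267% were called for EC against PC, 0.06% for EC against AC, 0.273% for EC against MG, 0.00667% for PC against AC, 0.727% for PC against MG and 0.293% for AC against MG. At an unadjusted p under 0.05 there were 0 to 2 members per comparison, and the smallest adjusted p of a member was 0.426. The share of all genes at that unadjusted level was not counted. The difference between 4 changed members in MG and none in EC or AC was therefore not shown to be a difference between cell types.

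Genes with related roles were examined in the same fits, where 4.62% of all genes rose and 6.62% fell in MG and 0.362% rose in EC. *Rack1*, a protein of the small subunit whose symbol the name rule does not take, rose in MG, from 4303 ± 578 to 7966 ± 2957 normalized counts (SD, n = 6, log2 fold change 0.84 ± 0.20, adjusted p = 0.0148). Of 78 mitochondrial ribosomal protein genes, 4 rose in MG (*Mrpl17*, *Mrpl55*, *Mrpl12* and *Mrpl28*) and none in EC or PC, nor any of 77 in AC. Their median log2 fold change was 0.57 in MG, -0.01 in EC, 0.06 in PC and -0.07 in AC. In MG it thus lay beside the 0.51 of the members, and in AC it lay apart from their 0.41.

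Of the 18 translation factors and other known TOP mRNAs, 5 rose in MG and none in the other cell types. *Eef1g*, a subunit of the elongation factor 1 complex, had 1086 ± 80.1 and 2737 ± 691 normalized counts in MG (log2 fold change 1.30 ± 0.16, adjusted p = 0.000239), and *Eif3l*, a subunit of initiation factor 3, had 2210 ± 262 and 3511 ± 294 (0.67 ± 0.13, adjusted p = 0.00576). *Hnrnpa1*, *Npm1* and *Eif3e* rose as well. The list's median was 0.56 in MG, 0.10 in EC, -0.07 in PC and 0.31 in AC.

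Of 35 ribosome biogenesis genes, 7 rose in MG and 1 in EC, and none in PC or, of 34, in AC. In MG they were *Rrs1* and *Bysl*, which act in the assembly of the large and the small subunit (0.91 ± 0.19 and 0.96 ± 0.22, adjusted p = 0.00858 and 0.012), and *Nhp2*, *Ddx21*, *Ncl*, *Rrp9* and *Nop16*. In EC *Nop56*, a core protein of box C/D snoRNPs, had 564 ± 121 and 1278 ± 390 normalized counts (1.16 ± 0.23, adjusted p = 0.0398). The median of this list was 0.83 in EC, where that of the members was 0.04, and 0.54 in PC, 0.50 in AC and 0.39 in MG.

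Of 16 regulators of TOP mRNAs (15 tested in PC and MG), 3 fell in MG and none changed in the other cell types. *Rptor*, the mTORC1 subunit that recruits substrates, had 1954 ± 377 and 929 ± 277 normalized counts (-1.10 ± 0.21, adjusted p = 0.0042). *Ddit4*, an inhibitor of mTORC1, had 299 ± 132 and 64.5 ± 47.9 (-2.52 ± 0.54, adjusted p = 0.00828), and *Eif4ebp2*, a repressor of initiation, had -1.03 ± 0.32 (adjusted p = 0.0491). None of the 6 snoRNA host genes tested changed in any cell type by limma, and their median was -0.62 in MG, -0.32 in EC, -0.14 in PC and 0.45 in AC. With the replicate block, 8 mitochondrial ribosomal protein genes rose in MG, 2 regulators rose and 2 fell there, and 1 host gene fell. The regulators that rose included *Rps6*, which is also a member and is counted in both lists. In AC the block gave 1 gene that rose in each of the lists of mitochondrial ribosomal proteins, translation factors, biogenesis genes and regulators. With the block, the share of all genes was counted only for those higher in MG (4.83%), and not for AC or for genes lower in MG. These lists were chosen with earlier results of the data known and are described by their counts and medians.

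Markers of other cells moved with the hemisphere, also in EC, PC and AC, which were gated as CD45 negative. The sum of the 6 MG markers was 340938 to 414146 normalized counts in contralateral and 165552 to 271020 in ipsilateral MG. The sum of the 6 neutrophil markers was 74 to 976 in contralateral and 1385 to 17914 in ipsilateral MG, and 0 to 1206 and 41 to 12117 in PC, and *Ly6g* was at 0 in all contralateral libraries of both, as *Camp* was in PC. In AC the neutrophil markers summed to 1 to 904 and 195 to 5097, and in EC to 1 to 1612 and 76 to 9557. The sum of the 5 markers of blood monocytes was 256 to 1347 and 1512 to 4013 in MG, and 0 to 748 and 15 to 8722 in PC. In ipsilateral PC the MG markers summed to 690 to 48587, against 587 to 20639 in contralateral PC. The ipsilateral PC sums were 11363 to 48587 in replicates 1 to 4, and 910 and 690 in replicates 5 and 6. In ipsilateral EC they were 5209 to 37815 in replicates 1 to 4, and 992 and 1035 in replicates 5 and 6. The part of these cells in the higher member levels was not tested.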

How the data were processed

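RNA of sorted EC, PC, AC and MG was sequenced from about 250 pg per library as single-end reads. The authors trimmed the reads with Trimmomatic 0.38, aligned them with STAR 2.6.1d to GRCm38, assigned them to genes with featureCounts 1.6.3 without reads mapping to several places or genes, and normalized with DESeq2 1.18.1. The values as deposited by the authors are a score, namely counts normalized by DESeq2 and then rounded. As they are not raw counts, no count test was run, and the depth of a library was estimated from the steps between its low values.

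From them, log2(value + 1) was tested in R 4.3.3 with limma 3.58.1 (lmFit, eBayes with a trend) for genes whose mean reached 10, by separate fits per cell type without a block, and by a fit of 48 libraries for levels and interactions. Tests were two-sided with Benjamini-Hochberg adjustment over all genes tested, and the fit was tested on simulated data. A fold change on this scale is understated for low genes. Summaries used Python 3.11.15 with pandas 2.3.3 and numpy 2.4.6.

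The members, gene lists and tests were chosen with earlier results of these data known. Members named are, per cell type, up to 5 in each direction with the smallest adjusted p among those changed in all 6 pairs, fixed members with additional roles, paralogs, the highest and lowest, up to 2 per direction and comparison of levels, and up to 2 per related list. *Rpl38*, *Rps2* in EC, PC and AC, *Rps27* in MG, and the further genes listed by name, were chosen after their values were seen. Alternatives were the pseudocounts 0.1 and 10, other filters and scalings, the replicate block, a joint fit, each replicate left out, replicates 1 to 4 alone, robust eBayes and the cell types of the titles. Centring by length, rescaling to the members and leaving out 1 library were added after the data were seen. Windows of 75 bases were compared with GENCODE release M21, and starts were read from RefSeq. Some members and related genes are counted but not reported here by name. The samples of a group came from separate pools of mice. The pairing rests on the shared mice, with libraries matched by replicate number. On average, the deviations of libraries sharing a number correlated across genes by 0.23 in EC (0.01 to 0.55), 0.23 in PC (-0.073 to 0.42), 0.38 in AC (0.019 to 0.66) and 0.14 in MG (-0.028 to 0.35), over 0.1 in 3, 4, 5 and 3 of 6 pairs, against -0.04, -0.04, -0.08 and -0.03 for other numbers.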

Additional observations from a re-analysis of the deposited data

Results flagged for a closer look

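Values far from the rest of their group were sought among the 6 libraries of each group by Dixon's ratio at its 95% critical value, which chance exceeds in about 5% of groups. The summed share of the members was set apart in contralateral EC replicate 2 (3.22%) and ipsilateral MG replicate 2 (3.51%). In ipsilateral MG replicate 2 so were *Rpsa* (12742 normalized counts), *Rplp0* (25582), *Rps2* (10227) and *Rpl6* (4598). *Rpsa* was also set apart in contralateral EC replicate 2 (7069) and in ipsilateral PC replicate 3 (4952). Over all 84 members, 76 had a value set apart in contralateral EC and 73 in ipsilateral MG, against 12 in ipsilateral PC, 5 in contralateral PC, 2 in ipsilateral EC, 1 in contralateral MG and 0 in AC of either hemisphere. The same count over all genes was not made. Short genes outside the members also deviated in contralateral EC replicate 2 and ipsilateral MG replicate 2, by medians of 1.92 and 1.82 (log2).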

How the results depend on the processing

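The number of pools limits the precision. The limits concern the 2 libraries that stand apart, short transcripts, and the titles of 12 libraries, whose markers are those of the column names. Unless named here, counts of members stayed within 1.5 times of those reported and medians within 1 SD of the pairs. The main counts of changed members are 0 in EC, 1 in PC, 0 in AC and 4 in MG, and regulated members are as many.

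With the cell types of the sample titles, 61 members were changed and regulated in PC with a median of 1.06, and in MG 17 were changed (4 higher and 13 lower) and 11 regulated with a median of -0.24. The replicate block, with the pairing of hemispheres, gave 14 changed and 13 regulated members in MG and ended no call and added none elsewhere. Rescaling to the sum of other genes gave 2 in PC and 7 changed in MG. The joint fit gave 1 in EC and 0 in PC. Centring by length gave 1 in EC and 2 in PC. With only replicates 1 to 4, PC had 0 and MG 2, and adding the block to these replicates left PC at 0 and gave 5 in MG. Rescaling to the members' median, which takes out their shared change, gave 0 in PC and in MG. Without contralateral EC replicate 2, EC had 2 changed and 2 regulated members, and without ipsilateral MG replicate 2, MG had 7 changed. The cause of these shifts was not tested.

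For levels, the members called were 10 between EC and PC, 0 between EC and MG and 13 between PC and MG. Centring by length gave 5 and 5 for the first 2 pairs. Replicates 1 to 4 gave 1 between EC and MG and 8 between PC and MG. Leaving out contralateral EC replicate 2, with or without ipsilateral MG replicate 2, gave 3 between EC and PC and 2 between EC and MG. Centring by length also gave 1 member whose stroke change differed between PC and AC, where 0 were called. Without the 5 members of highest mean, the summed share was 0.739% and 1.01% in contralateral and ipsilateral PC and 1.05% in contralateral MG.

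Leaving out each replicate in turn, changed members numbered 0 in EC and AC, 0 to 1 in PC and 0 to 10 in MG, and regulated members 0 to 1 in PC and 0 to 4 in MG. The MG count was 10 without replicate 2, 2 without replicate 1 or 4 and 0 without replicate 3, and the PC call was left only without replicate 2. Medians ranged from -0.14 to 0.40 in EC, 0.22 to 0.41 in PC, 0.14 to 0.62 in AC and 0.27 to 0.61 in MG. Members called between cell types numbered 3 to 11 for EC and PC, 56 to 80 for EC and AC, 0 to 1 for EC and MG, 18 to 40 for PC and AC, 5 to 16 for PC and MG and 60 to 76 for AC and MG, and 0 for every difference of stroke change. The counts moved most without replicate 2 for EC and PC (3), without replicate 3 for PC and AC (18), and without replicate 1 (5) or 5 (8) for PC and MG, and EC and MG had 1 without replicate 2, 4 or 5.

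Among the members given with a fold change, the direction turned in 13 cases. Under the sample titles, MG values were -0.043 for *Rpl6*, -0.61 for *Rplp1*, -0.15 for *Rplp2*, -0.62 for *Rpl5*, -0.57 for *Rpl11*, -0.53 for *Rps27a* and -0.48 for *Rpl7l1*. With only replicates 1 to 4, *Rps27* had 0.14 in MG, with and without the block. Rescaled to the members' median, *Rplp0* in PC had -0.027, and in MG *Rpl5* had -0.083, *Rpl11* -0.17 and *Rpl7l1* -0.23.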

Other observations

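Beside the members, 95 rows with symbols of the same form have a pseudogene biotype in the table, and 17 of them had a mean of at least 10 normalized counts. Their summed share was 0.00351% to 0.0438% of the normalized counts of a library. *Rps4l*, the row with the highest mean (741 normalized counts), was followed by *Rpl37rt* and *Rpl18-ps1* with 99.2 and 95.4. The medians over the libraries of a group were 0.0167% in contralateral EC, 0.0109% in MG, 0.00887% in PC and 0.00502% in AC. Contralateral AC thus had the lowest median for these rows too.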
